A study of Mus musculus with 8 samples.

Results

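The tripartite motif (TRIM) family is a group of proteins built from a RING finger, B-box zinc fingers and a coiled coil, followed by a C-terminal domain that differs between members. Most act as E3 ubiquitin ligases, the enzymes that attach ubiquitin to chosen target proteins. Some members are themselves switched on by interferon and act in antiviral defence, among them the antibody receptor Trim21 and Pml, the core protein of nuclear bodies, while others are chromatin regulators or serve in muscle, neurons or epithelium. Interferon works through receptors, JAK kinases and STAT and IRF transcription factors, which bind an element called the interferon-stimulated response element (ISRE) in the promoters of induced genes.

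The family was read from 114 array probe sets that named 1 gene alone, with a symbol of Trim, a number and at most 1 letter, or Pml. These stood for 59 genes of the 18193 genes named in this way, and for 114 of 34945 probe sets. Of the 59 genes, 31 passed the filter on low signal and were tested, and 28 did not. A core list of interferon-induced members held 12 of the 59 genes, 8 of them tested, and the other 47 held 23 tested genes. The lists were drawn from general knowledge and chosen with earlier results of these data known.

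The arrays measured RNA of lymphatic endothelial cells, the lining of lymph vessels, sorted from ear skin of female FVB mice as CD45-, CD31+ and podoplanin+ cells. The inflamed group had contact hypersensitivity: the contact allergen oxazolone was given at 2% on abdomen and paws, and after 5 days at 1% to both ear sides in a volume of 10 µl each. Ears were taken 24 hours after this challenge. The untreated group came from mice described as healthy and untreated. Each group held 4 samples, each pooled from 3 mice aged 8 to 10 weeks. The samples formed 4 pairs, sorted and extracted on a shared day and selected by the submitters for the quality of their RNA and cDNA. The p-values therefore rest in part on how the difference within a pair varied between the 4 pairs of pools, and not on single mice. The variance of each gene was also drawn towards that of genes of like signal. That prior had a median of 6.27 degrees of freedom, beside 3 from the pairs.

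All 6 measured lymphatic endothelial markers were above background on all 8 arrays, with a summed signal of 11367 to 19953 in inflamed and 19422 to 25849 in untreated samples. This sum was lower in all 4 pairs, and of these 6 markers Mmrn1 and Reln fell. Markers of other cells also differed between the groups. The summed signal of 4 pan-leukocyte markers was 1108 to 5541 in inflamed against 135.1 to 656.9 in untreated samples, and that of 5 neutrophil markers was 678.3 to 1634 in inflamed against 15.9 to 32.8 in untreated samples. Ptprc, the gene of CD45, was above background on 3 of 4 inflamed and 0 of 4 untreated arrays. The summed signal of 6 keratinocyte markers was 58.7 to 859.9 in inflamed and 712.0 to 3491 in untreated samples, and 3 of 4 tested fell. Of 5 blood endothelial markers 3 fell, Aqp1, Gpihbp1 and Cd300lg, with a summed signal of 695.8 to 1848 in inflamed against 1632 to 2788 in untreated samples. The fibroblast sum was higher in all 4 pairs, at 9681 to 22053 in inflamed against 4341 to 17648 in untreated samples, and 1 of 6 markers, Lum, rose. The dendritic cell sum was also higher in all 4 pairs, at 408.1 to 1134 in inflamed against 26.9 to 234.7 in untreated samples, and Cd74 rose. The monocyte and macrophage sum was higher in 3 of 4 pairs. These shifts stand beside every result given here, and their part in those results was not tested. In such sorted bulk samples, fewer cells of a type and less RNA per cell cannot be told apart.

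Promoter sequences show where the interferon-induced members resemble each other. RefSeq promoters on mouse build GRCm38.p6, spanning 250 bases before to 50 bases after a transcript start, were found for 48 of the 59 genes. They were searched on both strands for the ISRE core, GAAA followed after any 2 bases by GAAA again. The ISRE core stood in the promoters of 8 of 11 interferon-induced members and in that of 1 of 37 other members, Trim2, against 3.99% of the 27025 genes with a promoter. A match is a string of letters and not a shown binding site. A promoter of each gene that rose, and 60-base stretches of others, are printed 5′ to 3′ on the gene's strand, with every base of an ISRE core match in capitals. A match on the opposite strand reads TTTC in place of GAAA.

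Trim21, chr7:102565433-102565732, minus strand: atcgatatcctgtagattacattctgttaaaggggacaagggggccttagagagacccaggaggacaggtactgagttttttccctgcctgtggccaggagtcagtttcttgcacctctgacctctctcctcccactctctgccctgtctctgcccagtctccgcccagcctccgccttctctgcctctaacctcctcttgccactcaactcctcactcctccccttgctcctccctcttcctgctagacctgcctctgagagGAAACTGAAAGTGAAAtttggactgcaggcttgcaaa
Trim30a, chr7:104465144-104465443, minus strand: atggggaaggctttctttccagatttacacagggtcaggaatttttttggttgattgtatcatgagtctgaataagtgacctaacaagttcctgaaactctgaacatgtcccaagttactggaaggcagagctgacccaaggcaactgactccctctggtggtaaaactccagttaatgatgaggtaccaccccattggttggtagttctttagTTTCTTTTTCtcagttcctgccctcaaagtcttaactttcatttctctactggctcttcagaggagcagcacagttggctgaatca
Trim30d, chr7:104507856-104507915, minus strand: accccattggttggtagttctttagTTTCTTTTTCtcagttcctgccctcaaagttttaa
Trim34a, chr7:104244442-104244501, plus strand: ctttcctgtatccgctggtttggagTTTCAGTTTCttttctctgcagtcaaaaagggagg
Trim12c, chr7:104353344-104353403, minus strand: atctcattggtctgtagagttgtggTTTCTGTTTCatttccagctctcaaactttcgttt
Trim12a, chr7:104315451-104315510, minus strand: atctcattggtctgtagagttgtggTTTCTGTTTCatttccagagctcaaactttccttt
Trim5, chr7:104288121-104288180, minus strand: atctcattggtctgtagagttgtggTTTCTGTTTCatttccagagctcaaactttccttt
Trim26, chr17:36836964-36837023, plus strand: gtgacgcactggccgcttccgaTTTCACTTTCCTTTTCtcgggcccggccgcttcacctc
Trim2, chr3:84212789-84212848, minus strand: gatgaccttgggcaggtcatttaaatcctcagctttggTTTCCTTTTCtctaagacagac

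The Trim21 promoter holds 2 overlapping matches, as does that of Trim26. A second Trim30a promoter, at chr7:104446076-104446375, also holds a match, and its stretch around it shares 46 of 60 bases with that of the promoter printed. The stretches of Trim12a and Trim5 are identical in all 60 bases, and each shares 57 of 60 with that of Trim12c. The stretch of Trim30d shares 59 of 60 bases with the matching stretch of Trim30a. These genes are close copies of one another, so array probes of one may also bind transcripts of its neighbours.

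The printed stretches other than those of Trim21, Trim26 and Trim2 come from one block of chromosome 7, which runs from Trim34a (chr7:104244448-104262244) through Trim5, Trim12a, Trim12c and Trim30a (chr7:104409025-104465193) to Trim30d (chr7:104470014-104507853). Trim6, which is not on the interferon-induced list, lies just before it, at chr7:104218795-104235152. Trim21 lies at chr7:102557920-102565482. In all, 13 of the 59 members lie on chromosome 7.

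Trim30a and Trim21 rose in the inflamed samples and Trim62 fell. These were 2 higher and 1 lower of 31 tested members, by an adjusted p below 0.05 in limma, a linear model with moderated variances fitted over all 10843 genes tested, with the pair as a block. Over all genes tested, 3.91% rose, 3.02% fell and 6.94% did either. Both that rose were among the 8 tested interferon-induced members, of which 0 fell, while 0 of the 23 others rose and 1 fell. At an unadjusted p below 0.05 in limma, 4 of the 8 were higher and 0 lower, and of the 23 others 1, Trim27, was higher and 5 were lower. Over all genes tested, 10.5% were higher and 11.5% lower at that threshold, 22% in either direction. The median difference, as log2 signal of inflamed minus untreated samples averaged over the pairs, was 1.48 for the interferon-induced members and -0.60 for the others, beside -0.087 for all genes tested. Differences were above 0 for 6 of the 8 and below 0 for 17 of the 23. Median centring of the arrays, which moved the median of all genes to 0.22, gave 8 above 0 of the 8 and 14 below 0 of the 23. Of the 31 tested members, Trim13, Trim23 and Trim29 had an inflamed mean under the filter limit and were tested because of their untreated signal.

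**Figure D1:**
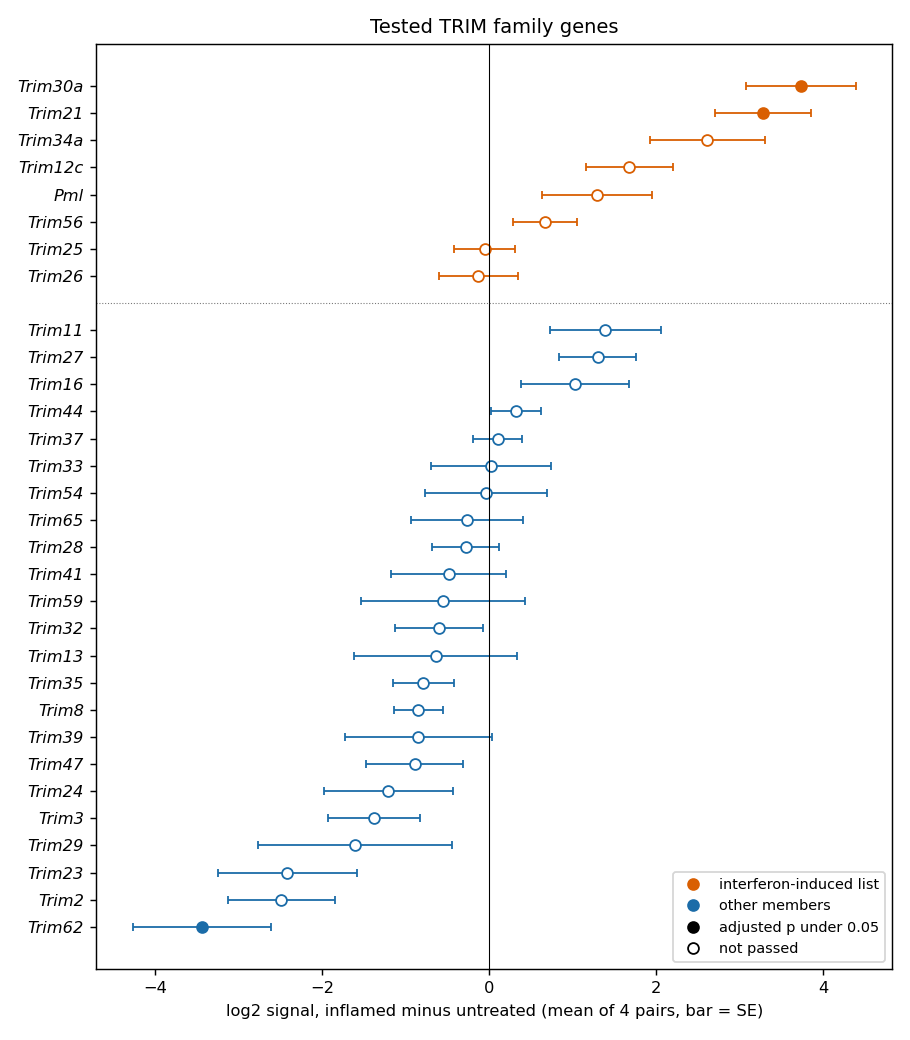
Difference in log2 signal, inflamed minus untreated, for the 31 tested TRIM family genes (points, mean of 4 pairs; bars, moderated SE), with the 8 interferon-induced genes above the dotted line and the 23 others under it. Filled points, Trim30a, Trim21 and Trim62, have an adjusted p under 0.05; the interferon-induced genes run from -0.13 to 3.73 and the others from -3.44 to 1.39.

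Among the interferon-induced members, Trim30a, known in mouse macrophages as a brake on NF-kB signalling, had the largest difference. Its log2 signal was 7.04, 7.57, 8.68 and 7.03 in inflamed samples 1 to 4, against 3.04, 4.93, 3.50 and 3.92 in untreated samples 1 to 4. The groups did not overlap, which held for 13.1% of all genes tested, and the lowest inflamed sample lay above the highest untreated one by more than either group's SD. Trim30a rose by 3.73 ± 0.66 (SE), a 13.3-fold difference (adjusted p = 0.0109 in limma), with values 4.00, 2.64, 5.17 and 3.11 in pairs 1 to 4. Without pair 3 its adjusted p was 0.0687 in limma. Its signals in untreated samples 1, 3 and 4 lay not far above the background ceilings of those arrays, 2.86, 3.14 and 3.31. The size of the fold rests in part on these values. A second probe set of Trim30a gave a difference of 3.98, higher in 3 of the 4 pairs, with 2 of 4 untreated arrays above background.

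Trim21 encodes a cytosolic receptor that binds the constant part of antibodies on incoming viruses and marks the complex for the proteasome. Its log2 signal was 9.84, 8.89, 7.76 and 8.39 in inflamed samples, against 5.07, 5.11, 5.10 and 6.49 in untreated samples. All 4 inflamed samples were above all 4 untreated ones, and untreated sample 4 stood above the other untreated samples. Trim21 rose by 3.28 ± 0.58 (SE), a 9.70-fold difference (adjusted p = 0.0104 in limma). The call ended without the intensity trend in the variance model (adjusted p = 0.0699) and without pair 1 (adjusted p = 0.0557). The second Trim21 probe set differed by 2.68 and was higher in all 4 pairs.

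Trim34a and Trim12c, members of the chromosome 7 block related to the retrovirus restriction factor TRIM5 of primates, were higher in all 4 pairs and did not pass the test. Trim34a had log2 signals of 7.07, 8.32, 7.65 and 5.49 in inflamed samples, against 5.99, 4.11, 4.65 and 3.34 in untreated samples. Inflamed sample 4 lay under untreated sample 1, so the groups overlapped. The difference was 2.61 ± 0.69 (SE; adjusted p = 0.0536 in limma, and between 0.0277 and 0.188 over 14 alternatives, 5 of which passed). Trim12c had 8.61, 8.05, 7.24 and 8.46 in inflamed samples, against 6.32, 6.02, 7.06 and 6.24 in untreated samples. These groups did not overlap, by a margin of less than 1 SD between inflamed and untreated sample 3. The difference was 1.68 ± 0.52 (SE; adjusted p = 0.0932 in limma). Its second probe set past the filter gave 1.19, higher in 3 of 4 pairs. For Trim34a, a second probe set under the filter gave 0.60, and 2 probe sets shared with Trim34b gave 0.71 and -0.60, so the probe sets of this gene disagree in size and, where shared, in sign.

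Pml, the scaffold of nuclear bodies and a member through its RING and B-box domains, had log2 signals of 9.05, 6.65, 6.35 and 7.85 in inflamed samples, against 5.62, 5.31, 6.77 and 7.03 in untreated samples. It was higher in 3 of 4 pairs and the groups overlapped. The difference of 1.29 ± 0.66 (SE) did not pass (adjusted p = 0.296 in limma, 95% interval -0.19 to 2.77). A second Pml probe set past the filter gave 2.51, higher in all 4 pairs, in which pair 4 at 5.69 stood above the others. Trim56, a ligase linked to antiviral signalling through STING, was 8.95, 8.37, 7.50 and 8.42 in inflamed samples, against 8.42, 7.40, 7.33 and 7.42 in untreated samples. It was higher in each pair and its groups overlapped, with a difference of 0.67 ± 0.38 (SE; adjusted p = 0.355 in limma, 95% interval -0.19 to 1.52).

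Trim25 and Trim26 showed little difference on the probe set tested. Trim25 adds ubiquitin chains to the RNA sensor RIG-I and can also transfer ISG15. Its log2 signal was 8.60, 9.18, 9.81 and 8.14 in inflamed samples, against 8.49, 9.15, 8.98 and 9.34 in untreated samples. The difference was -0.056 ± 0.37 (SE; adjusted p = 0.955 in limma), with a 95% interval of -0.88 to 0.77, and its other 2 probe sets past the filter gave 0.19 and -0.14. This interval holds no change of 2-fold in either direction. Trim26, encoded near the MHC class I genes on chromosome 17, was 9.62, 7.66, 7.09 and 5.71 in inflamed samples, against 8.50, 7.98, 8.07 and 6.06 in untreated samples. The spread among samples of each group was larger than the mean shift between groups, and the difference was -0.13 ± 0.47 (SE; adjusted p = 0.912 in limma, 95% interval -1.20 to 0.93). A dimmer second probe set of Trim26 gave 1.39. Under median centring both genes had differences above 0, at 0.25 for Trim25 and 0.17 for Trim26.

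**Figure D2:**
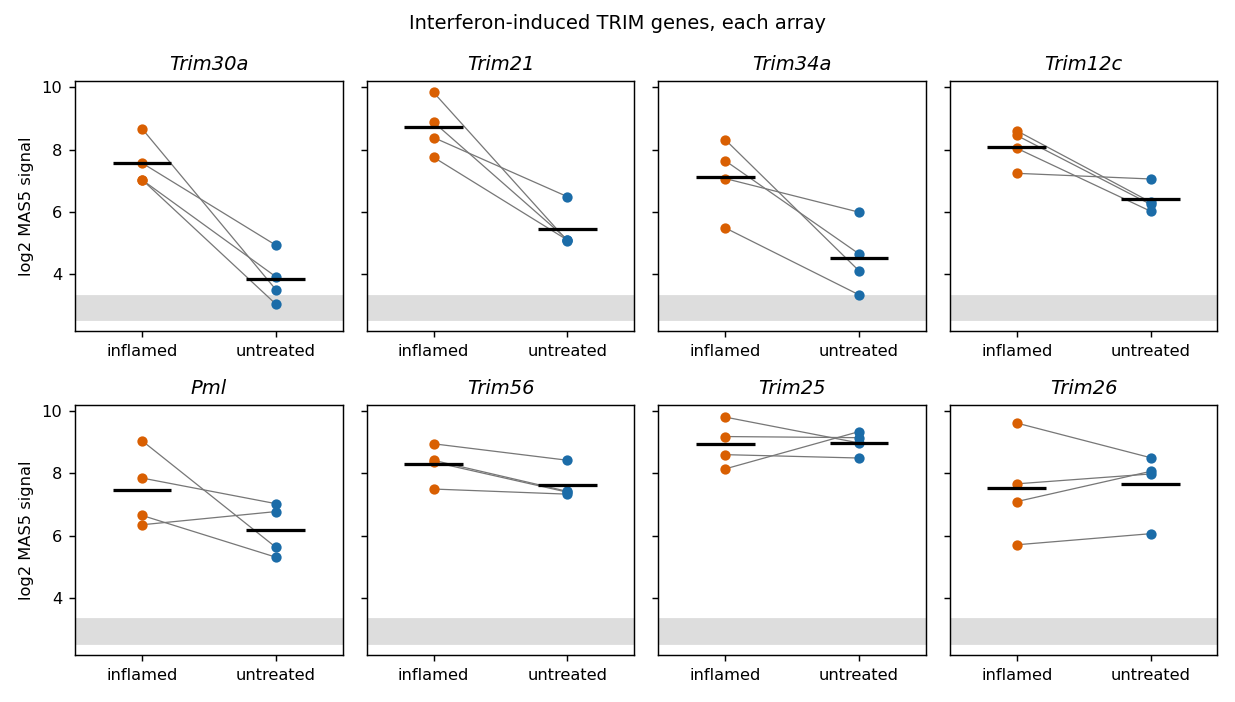
Log2 MAS5 signal of the 8 tested interferon-induced TRIM genes on each array, with inflamed samples on the left and untreated samples on the right of each panel. Lines join pairs, black bars are group means and the grey band spans the background ceilings of the 8 arrays; Trim30a, Trim21 and Trim12c separate the groups, while Trim25 and Trim26 have overlapping values.

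Of these 8 genes, 5 were higher in all 4 pairs, beside 13.6% of all genes tested, and 3 had groups that did not overlap, beside 13.1%. The 5 tested genes with an ISRE core match had a median difference of 2.61 and ran from -0.13, for Trim26, to 3.73, for Trim30a. The 3 tested genes without one, Pml, Trim25 and Trim56, ran from -0.056 to 1.29 with a median of 0.67. Trim2, the other tested member with a match, differed by -2.49. With so few genes these are descriptions, and no test of the motif was made.

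The 4 interferon-induced members under the filter were dim. Trim30d, with a promoter stretch nearly identical to that of Trim30a, had log2 signals of 2.29, 2.28, 3.77 and 3.32 in inflamed samples, against 1.62, 2.17, 0.65 and 0.85 in untreated samples, and was above background on 2 of 4 inflamed and 0 of 4 untreated arrays. Trim12a and Trim5, with ISRE core matches identical to that of Trim12c, were above background on 1 of 4 inflamed arrays each, and on 2 of 4 and 0 of 4 untreated arrays. Trim14, an adaptor of mitochondrial antiviral signalling without a RING finger, was under background on all 4 inflamed arrays and above it on 2 of 4 untreated arrays, and was not tested. Its untreated mean lay 1.76-fold above the background ceiling of the inflamed arrays, or 1.12-fold without untreated sample 2. This mean takes in untreated samples 3 and 4, which were under background, so it sets no firm bound. The second Trim14 probe set was under background on all 8 arrays.

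Among the members outside the interferon-induced list, Trim62 fell. Trim62 is a RING ligase with a SPRY domain, known in human breast epithelium as a regulator of cell polarity. Its log2 signal was 1.30, 6.44, 4.80 and 2.70 in inflamed samples, against 7.35, 7.72, 7.43 and 6.51 in untreated samples. The inflamed samples were spread more widely, with an SD of 2.27 against 0.52 in untreated samples, and inflamed samples 1 and 4 were under background. The highest inflamed sample lay just under the lowest untreated one. Trim62 fell by 3.44 ± 0.83 (SE; adjusted p = 0.0393 in limma). The size rests in part on values under background, and with those raised to the background ceiling the difference was -2.95. The call ended without the pair block (adjusted p = 0.0587), without the intensity trend (0.119) and without pair 1 (0.127), pair 3 (0.114) or pair 4 (0.0946). The other 2 Trim62 probe sets were under the filter, at differences of 0.31 and 0.13.

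The members with a C-terminal NHL domain, a propeller fold known from RNA and protein binding, had differences below 0 on their tested probe sets. By adjusted p, 0 of 3 passed, and by an unadjusted p below 0.05 in limma 2 of 3 were lower, Trim2 and Trim3, beside 11.5% of all genes tested. Trim2, a ligase known in neurons, had log2 signals of 7.23, 4.89, 7.33 and 8.88 in inflamed samples, against 10.62, 9.64, 8.72 and 9.32 in untreated samples. It was lower in all 4 pairs, and inflamed sample 4 lay above untreated sample 3. The difference was -2.49 ± 0.64 (SE; adjusted p = 0.0511 in limma, and under 0.05 in 8 of 15 alternatives). Of the 5 Trim2 probe sets past the filter, 4 were lower, at -2.49, -2.13, -1.03 and -0.97, and 1 differed by 0.049. Trim3, a close relative of Trim2, was 5.36, 5.74, 5.56 and 5.50 in inflamed samples, against 6.75, 7.69, 6.47 and 6.77 in untreated samples. Its inflamed samples lay close together and all under the untreated ones, and the difference of -1.38 ± 0.55 (SE) did not pass (adjusted p = 0.178 in limma). Trim32, the third of this class tested and outside the naming rule, was lower in all 4 pairs at -0.60 (adjusted p = 0.558 in limma). Of 6 pan-endothelial markers, 3 fell, Tie1, Tek and Kdr. The summed signal of the 6, 2585 to 5494 in inflamed and 4486 to 7523 in untreated samples, was lower in 3 of 4 pairs, and its part in the values of these genes was not tested.

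Trim8, known to act on SOCS and STAT signalling, was 8.80, 9.38, 9.85 and 8.79 in inflamed samples, against 10.48, 10.12, 9.88 and 9.74 in untreated samples, a difference of -0.85 ± 0.30 (SE; adjusted p = 0.133 in limma). It was lower in all 4 pairs on this bright probe set, but 2 dimmer probe sets gave 0.39 and, under the filter, 2.00. Trim23, which carries an ARF GTPase domain, was 6.81, 0.90, 1.19 and 3.17 in inflamed samples, against 7.01, 4.04, 4.97 and 5.73 in untreated samples. It was lower in all 4 pairs, with 2 of 4 inflamed arrays above background, and the difference of -2.42 ± 0.83 (SE) did not pass (adjusted p = 0.125 in limma). In all, 6 of the 23 other members were lower in all 4 pairs, Trim62, Trim2, Trim23, Trim3, Trim8 and Trim32, beside 15.5% of all genes tested.

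Trim27, Trim11 and Trim16 had differences above 1 and did not pass. Trim27, a ligase of the SPRY class first found as a fusion partner of RET in human cells, was 8.40, 9.15, 10.01 and 10.44 in inflamed samples, against 8.98, 7.36, 8.28 and 8.20 in untreated samples. It was lower in pair 1 and higher in the other pairs, with a difference of 1.30 ± 0.46 (SE; adjusted p = 0.136 in limma, and 0.0323 without pair 1). Its 2 further probe sets past the filter gave 1.34 and 0.88. Trim11 was 5.81, 7.49, 6.77 and 6.24 in inflamed samples, against 5.42, 5.12, 4.24 and 5.99 in untreated samples. It was higher in each pair and the groups overlapped, with a difference of 1.39 ± 0.67 (SE; adjusted p = 0.265 in limma). Trim16, a member without a RING finger known from the response to damaged endosomes, differed by 1.03 ± 0.65 (SE; adjusted p = 0.407 in limma), with 0.98 on its second probe set.

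**Figure D3:**
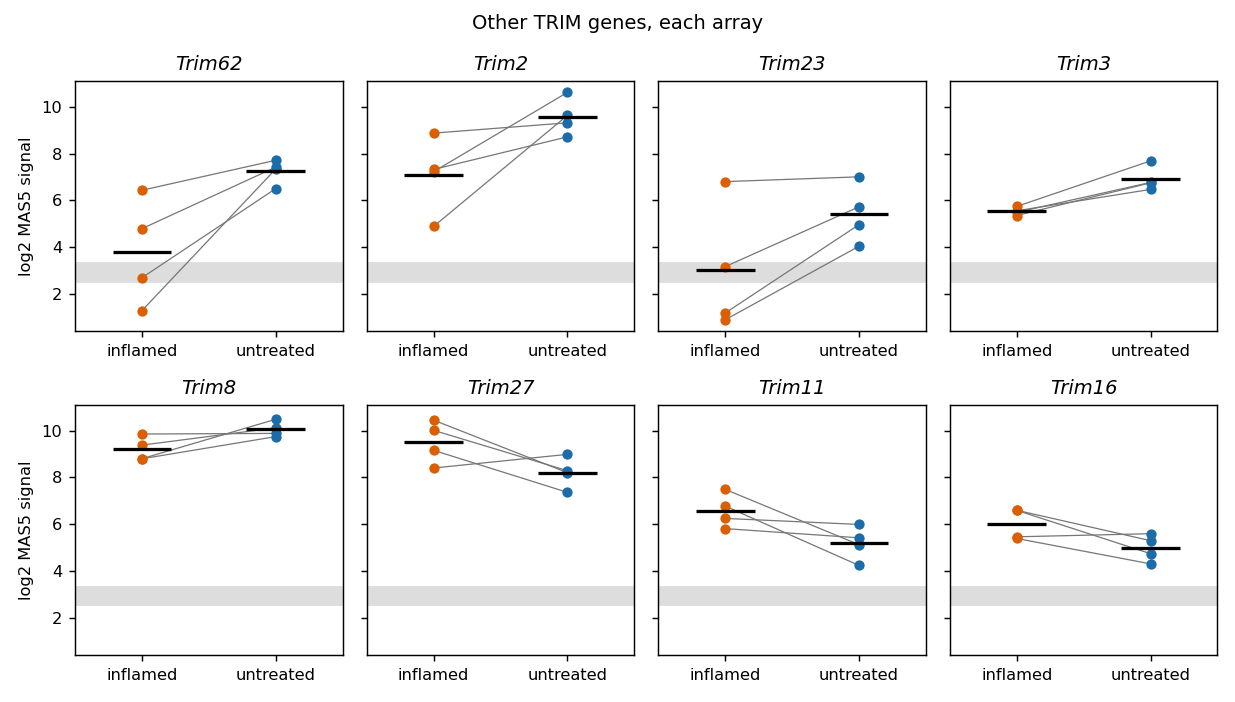
Log2 MAS5 signal of 8 TRIM genes outside the interferon-induced list on each array, with inflamed samples on the left and untreated samples on the right of each panel. Lines join pairs, black bars are group means and the grey band spans the background ceilings; Trim62, Trim2, Trim23, Trim3 and Trim8 are lower in all 4 pairs, and inflamed samples of Trim62 and Trim23 reach under the band.

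The chromatin regulators with a PHD finger and bromodomain, Trim24, Trim28 and Trim33, did not pass. Trim28, the corepressor that zinc finger proteins bring to silenced repeats, differed by -0.29 ± 0.41 (SE; 95% interval -1.20 to 0.63) and its second probe set by 0.068. Of these 3, 0 had an unadjusted p below 0.05 in limma. Trim33, which acts on SMAD signalling, differed by 0.018 ± 0.71, with inflamed samples spread from 2.90 to 7.91 and untreated samples from 5.15 to 7.54. Trim24 differed by -1.21 ± 0.77 (95% interval -2.95 to 0.53), higher in 1 of 4 pairs. Trim37, a ligase linked to peroxisomes and centrosomes, differed by 0.098 ± 0.30 (95% interval -0.57 to 0.77), and Trim44, which lacks a RING finger, by 0.32 ± 0.30 (95% interval -0.35 to 0.99). Both intervals end under a 2-fold change, which holds for the probe sets tested only. Other probe sets past the filter ran from -1.70 to 0.28 for Trim37 and gave 0.88 and -0.49 for Trim44.

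Trim35, Trim41, Trim47 and Trim65, SPRY members, differed by -0.79, -0.49, -0.89 and -0.27 and did not pass. Second probe sets past the filter had the opposite sign, at 0.44 for Trim35 and 0.64 for Trim41. Trim29, an epithelial member without a RING finger that keratinocytes express, was 3.08, 4.07, 1.13 and 1.78 in inflamed samples, against 5.82, 2.07, 6.29 and 2.30 in untreated samples. It was above background on 2 of 4 arrays in each group. It was lower in 3 of 4 pairs, of which pair 4 had both samples under background. The difference was -1.61 ± 1.16 (SE, adjusted p = 0.469 in limma). The summed signal of the keratinocyte markers was lower in 3 of 4 pairs, and its part in the values of Trim29 was not tested. Trim54, a muscle member with a COS box, was above background on all 4 arrays of each group and differed by -0.037 ± 0.73. Of the 7 striated muscle markers 0 were above background on all 4 arrays of either group. Mylpf was above it on 3 of 4 arrays in each group and Myh1 on 2 of 4. Ckm was above it on 3 of 4 inflamed and 2 of 4 untreated arrays. The summed signal of the 7 was 17.7 to 262.0 in inflamed and 32.2 to 339.4 in untreated samples. Its part in the values of Trim54 was not tested. The other tested members were outside the naming rule: Trim13, Trim39 and Trim59 differed by -0.64, -0.85 and -0.56, with adjusted p-values in limma of 0.76, 0.631 and 0.802. A second Trim59 probe set past the filter gave -2.10 and was lower in all 4 pairs. Over the alternatives the difference of Trim59 ran from -1.56 to 0.67, so its sign was not stable.

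Of the 28 members under the filter, 0 were above background on all 4 arrays of either group, and Trim15, Trim40, Trim42, Trim63, Trim66 and Trim75 were at or under it on all 8 arrays. Their differences ran from -3.32 to 2.21. These values have no order where they lie under background.

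Several genes were measured by more than 1 probe set. Of the 59 members 32 had more than 1 probe set, and 19 had more than 1 past the filter. For 9 of these 19 all such probe sets had the same sign. They included Trim30a, Trim21, Trim12c and Pml among the interferon-induced members, while Trim25 and Trim26 had probe sets of either sign. The 5 probe sets of Trim37 ran from -1.70 to 0.28.

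**Figure D4:**
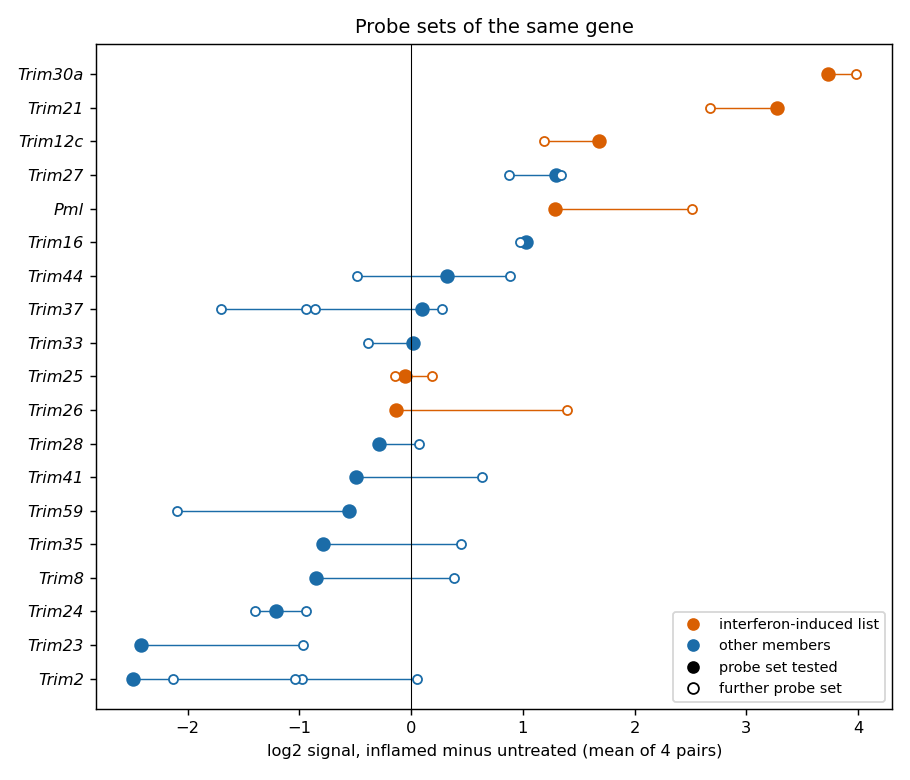
Difference in log2 signal, inflamed minus untreated (mean of 4 pairs), for each probe set past the filter of the 19 TRIM genes with more than 1 such probe set. Filled points are the probe sets tested; those of Trim30a, Trim21, Trim12c, Pml, Trim27 and Trim16 all lie above 0, and those of 10 genes lie on either side of 0.

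Genes that TRIM proteins work with were read from 3 lists. In the list of RNA sensing, interferon signalling and ISG15 genes, 7 of 24 tested genes rose and 0 fell, with a median difference of 0.78, beside 3.91% and 3.02% of all genes tested. At an unadjusted p below 0.05 in limma, 11 were higher and 0 lower, beside 10.5% and 11.5% of all genes tested. Irf7, the transcription factor that amplifies type I interferon, was under background on all 4 untreated arrays and at least 16.8-fold higher in inflamed samples (adjusted p = 0.00617 in limma). Without inflamed sample 2 this bound was 11.5-fold. Dhx58, an RNA sensor related to RIG-I, was likewise under background on all 4 untreated arrays and at least 18.1-fold higher (adjusted p = 0.00522 in limma), or 11.5-fold without inflamed sample 1. Its call ended without pair 1 (adjusted p = 0.46), where a different probe set stood for the gene. Ube2l6, the E2 enzyme for ISG15, rose by 4.14 ± 0.54 (SE), and Sting1, the adaptor of cytosolic DNA sensing, by 2.50 ± 0.30. Usp18, Herc6 and Stat2 also rose. Of the genes that rose, Irf7, Dhx58 and Usp18 had untreated means of 1.37, 1.46 and 1.18, under the filter limit. They were tested because of their inflamed signal, and the count of genes that rose includes them. The count by unadjusted p includes them and also Ifih1, which had an untreated mean of 3.00 and was likewise tested because of its inflamed signal. In the same list, Irf9, a partner of STAT proteins, differed by 1.73 ± 0.62 (adjusted p = 0.138 in limma), and Ddx58, which encodes the Trim25 target RIG-I, by 0.31 ± 0.82 (adjusted p = 0.877 in limma). Isg15 had no probe set naming it alone.

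In the list of E2 enzymes and ubiquitin genes, 1 of 13 tested genes rose and 0 fell, with a median of 0.31. At an unadjusted p below 0.05 in limma, 2 were higher and 2 lower, beside 10.5% and 11.5% of all genes tested. The gene that rose was Ube2d3, an E2 enzyme that many RING ligases use, with log2 signals of 11.81, 12.06, 11.85 and 12.06 in inflamed samples, against 11.21, 11.45, 11.12 and 11.09 in untreated samples. The groups did not overlap, and the rise was 0.72 ± 0.13 (SE; adjusted p = 0.0106 in limma). The call ended with quantile normalization (adjusted p = 0.0683), cyclic loess normalization (0.072) or the mean of its probe sets (0.52), without the intensity trend (0.314) and without pair 3 (0.0601). Of the partners of Trim28 and Pml, 0 of 15 tested genes passed in either direction, with a median of -0.035, while 2 were lower and 0 higher by an unadjusted p below 0.05 in limma, Sumo3 and Atf7ip, beside 11.5% and 10.5% of all genes tested. Sp100 and Daxx, which share nuclear bodies with Pml, differed by 1.56 ± 0.91 and 1.19 ± 0.67, each higher in 3 of 4 pairs, and Sumo3 by -0.77 ± 0.26 (adjusted p = 0.118 in limma).

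The calls on single members depended on the processing to different degrees. Trim21 passed in 13 of 15 alternatives and Trim30a in 13 of the 14 that tested it, while Trim62 passed in 8 of 13.

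**Figure D5:**
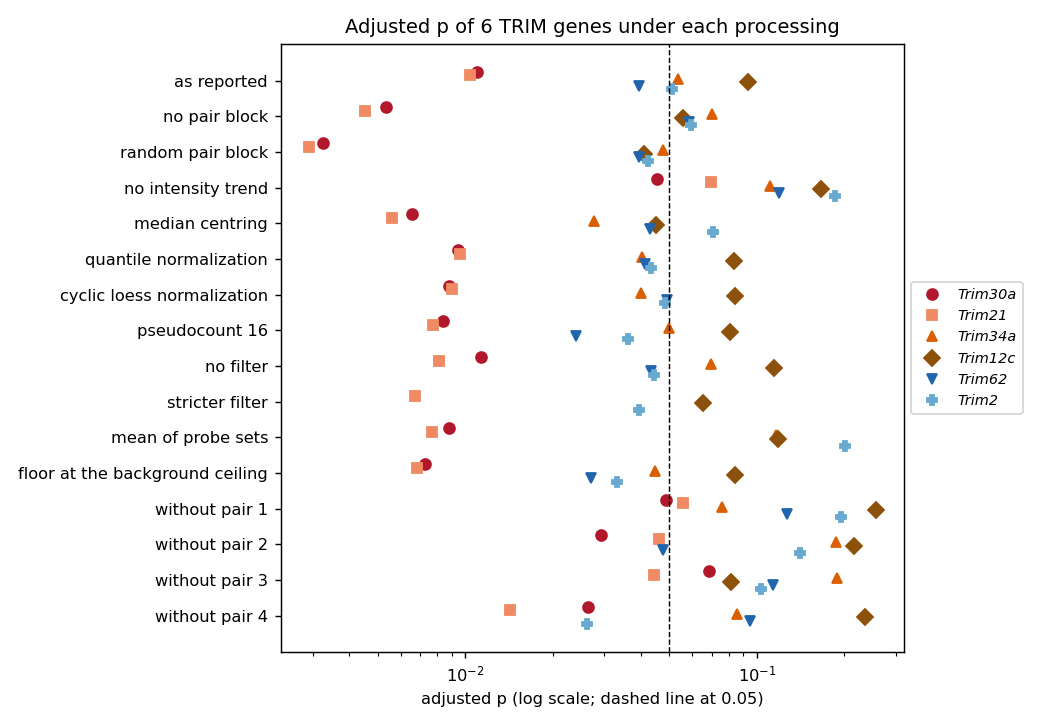
Adjusted p in limma (log scale) of 6 TRIM genes as reported and under each alternative processing, with the threshold of 0.05 as a dashed line. Trim30a and Trim21 lie left of the line in 13 alternatives each, and Trim34a, Trim12c, Trim62 and Trim2 cross it between alternatives; a gene that an alternative did not test has no point there.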

How the data were processed

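RNA of sorted lymphatic endothelial cells was amplified by a linear isothermal method, labelled with biotin and hybridised to 8 single-colour arrays, per the labels' protocols. The authors deposited 1 linear intensity for every probe set of an array, named MAS5 signal by the submitters' processing notes. Its version and scaling target were not given in the sources used here. GEO's platform annotation named 1 gene for 34945 probe sets, several for 932 and none for 9160. Gene positions and promoters are RefSeq's, on build GRCm38.p6.

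The deposited scaling was kept, since medians of the arrays lay within 0.468 log2 units of each other, and the signals were put on a log2 scale as they were. A probe set stayed in if its mean reached 3.30, the median over all, and each gene was represented by its brightest such probe set (10843 genes). The fit used limma 3.58.1 in R 4.3.3 with the pair as a block, trended eBayes and two-sided tests, adjusted by Benjamini-Hochberg over all genes. It was tested on simulated data. SE is the moderated one. The design text states the pairing by day of sorting and extraction. Within pairs 1 to 4, the correlation of the 2 samples' departures from their group means was 0.16, -0.0012, 0.082 and 0.032. Background was the 95th percentile of 27 bacterial control probe sets per array, at 2.53 to 3.31 log2, a rule chosen after values were seen. A fold given as "at least" sets the brighter group's mean against this ceiling. The number of arrays limits the precision.

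The members and lists were chosen with earlier results of these data known. Named were members past the threshold, interferon-induced members, the 10 largest and 5 smallest differences of the other members, members whose probe sets disagree in sign, up to 4 genes with the smallest p of each pathway list, and Irf7, Irf9, Ddx58, Sp100 and the sort markers. Trim32, Trim13, Trim39, Trim59, Usp18, Herc6, Stat2 and Ifih1 were named after their values were seen.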

Additional observations from a re-analysis of the deposited data

Results flagged for a closer look

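Groups of 4 arrays were checked for 1 array far from the other 3, by Dixon's ratio of its gap to the whole range, at the 95% level. Of 88 groups of named genes, 4 had such an array, and chance gives about 1 in 20. Untreated sample 4 of Trim21 had a log2 signal of 6.49, above the other untreated arrays at 5.07 to 5.11. Untreated sample 1 of Trim56 had 8.42, above the others at 7.33 to 7.42. Inflamed sample 1 of Dhx58 had 9.11, above the others at 6.36 to 6.66. Untreated sample 2 of Daxx had 8.54, above the others at 5.97 to 6.26.

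A probe set that names both Trim30d and Trim30a was outside the tests because it names 2 genes. It was above background on all 4 inflamed arrays and on 1 of 4 untreated arrays, and its mean log2 signal of 6.82 in inflamed and 1.13 in untreated samples differed by 5.69.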

How the results depend on the processing

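There were 15 alternatives: 14 chosen with earlier results known, and a floor at the background ceiling chosen after seeing the data. Of 392 values of 27 named tested members, 346 kept direction and side of the threshold, 8 lost and 16 gained a call, and 22 changed sign. The cause was not tested. Of TRIM members, 2 rose: 4 with a random replicate block or median centring, and 3 with quantile or cyclic loess normalization or the floor. The count was 1 without the intensity trend, 1 with the stricter filter (20 tested), and 1 to 2 when leaving out a pair. The interferon-induced members gave the same counts and range, except without pair 1, where they gave 1 against 2 because Trim27 passed. A broader list of them gave 2. Of TRIM members, 1 fell, in the other members: 0 with no replicate block, no intensity trend or the mean of probe sets, and 2 with a random replicate block, quantile or cyclic loess normalization, a pseudocount of 16, no filter or the floor; leaving out a pair gave 0 to 1. Other members higher, 0 as reported, ran from 0 to 1 when leaving out a pair. Pathway genes higher, 8 as reported, were 7 with quantile or cyclic loess normalization or no filter, and 6 with the mean of probe sets. They were 3 without the trend, 5 with the stricter filter and 4 to 6 when leaving out a pair. Without the replicate block the call of Trim62 was lost, and no other call of a TRIM gene changed. Over all genes, 424 higher and 328 lower became 94 and 47 without the trend, 719 and 227 (76.0% higher, against 56.4%) with median centring, and 194 and 103 without pair 3.

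Sign changes were seen only in members that did not pass. With median centring, Trim25 was at 0.25, Trim26 at 0.17, Trim28 at 0.018, Trim54 at 0.27 and Trim65 at 0.038. With the mean of probe sets, Trim26 was at 0.63, Trim33 at -0.66, Trim37 at -0.62, Trim41 at 0.075 and Trim8 at 0.51. Trim54 was at 0.25 with quantile and 0.29 with cyclic loess normalization. Leaving out a pair, Trim25 ran from -0.35 to 0.33, Trim26 from -0.55 to 0.15, Trim33 from -0.56 to 0.77, Trim37 from -0.044 to 0.19, Trim41 from -0.80 to 1.76 (another probe set without pair 2), Trim54 from -0.43 to 0.27, Trim65 from -0.91 to 0.085 and the pathway gene Ddx58 from -0.41 to 1.22.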
